A study of Mus musculus with 10 samples.

Results

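The genes of fatty acid oxidation and ketogenesis were examined in freshly isolated mouse hepatocytes that had lost Nrf2, p65, or both. They comprise 43 genes, chosen by function and matched by symbol to the Ensembl identifiers of the deposited table, which holds 21939 genes. All 43 had at least 10 counts in total over all mice and are among the 13641 genes tested, so none is missing from the counts below. The members are the regulator Ppara. Uptake and binding are represented by Cd36, Slc27a2, and Fabp1, and activation by Acsl1 and Acsl5. The carnitine shuttle comprises Cpt1a, Cpt2, and Crat, and the acyl-CoA dehydrogenases are Acadm, Acadl, Acadvl, Acads, Acadsb, and Acad11. The later mitochondrial steps are carried out by the products of Hadha, Hadhb, Hadh, and Acaa2, the handling of unsaturated fatty acids by those of Decr1, Decr2, Eci1, Eci2, and Eci3, and electron transfer by those of Etfa, Etfb, and Etfdh. The peroxisomal steps comprise Acox2, Ehhadh, Hsd17b4, Acaa1a, and Acaa1b, and ketone body metabolism is represented by Bdh1 and Acat1. Acyl-CoA thioesterases are Acot1, Acot2, Acot3, Acot4, Acot8, and Acot12, and linked enzymes are Pdk4, Vnn1, and Aldh3a2.

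All mice were males of 8 to 9 weeks on the C57BL/6J background, and RNA was taken 12 days after injection of AAV8Cre. This adeno-associated virus carries Cre recombinase under the thyroxine-binding globulin promoter, which is active in hepatocytes. Control mice were wild-type and also received AAV8Cre, so that a floxed allele without Cre is not among the groups. Nrf2 KO mice carried floxed Nrf2 alleles, p65 KO mice floxed p65 alleles, and DKO mice (Nrf2:p65 DKO) both. There was 1 library per mouse, with 3 control, 2 Nrf2 KO, 2 p65 KO, and 3 DKO libraries, and total estimated counts of 33707165 to 49897382 per library. The gene for Nrf2, Nfe2l2, had a higher total in the libraries labelled Nrf2 KO than in control (log2 fold change 1.21, standard error 0.156, adjusted p = 0.00488, and 0.0816 without Nrf2 KO replicate 2), and Rela, the gene for p65, did not differ in p65 KO (-0.07, standard error 0.138, adjusted p = 0.765). The table holds 1 total per gene and cannot show a deleted exon, so the genotypes are those of the labels. The study itself reported efficient loss of Nrf2 and p65 in isolated hepatocytes 12 days after AAV8Cre, by RT-qPCR and Western blot. The 10 hepatocyte marker genes summed to 3753000 to 5240000 normalized counts in control and 5119000 and 5872000 in Nrf2 KO libraries. Their sums were 4237000 and 4458000 in p65 KO and 4766000 to 4913000 in DKO libraries. Markers of Kupffer cells summed to 428.5 to 1068 in control and 4814 to 6491 in p65 KO libraries, so that other liver cells were present at low levels.

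Hepatocytes burn fatty acids in mitochondria and peroxisomes. Long-chain fatty acids are bound, coupled to coenzyme A, and carried into mitochondria by the carnitine shuttle, where each turn of beta-oxidation removes a short unit as acetyl-CoA, whereas very-long-chain and branched fatty acids are shortened in peroxisomes. During fasting the liver turns acetyl-CoA into ketone bodies, and the nuclear receptor PPARα, encoded by Ppara, activates many of these genes when it binds fatty acids. It does so as a partner of RXR on the PPAR response element, a direct repeat, whereas Nrf2 binds antioxidant response elements and p65 binds kB sites.

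Promoters were searched for letters of these 3 elements because many of the genes moved in the same direction. RefSeq windows of GRCm38.p6, from 250 bases before the start to shortly after it, were found for 37 of the 43 genes. The PPAR response element was searched on both strands as AGGNCA followed, after any 1 base, by AGGNCA, and it occurred in 1 of the 37 genes (2.7%), Fabp1, compared with 0.451% of all 27025 genes with a window. The letters TGACNNNGC on either strand, the core of the antioxidant response element, occurred in Acot3, Acox2, Ehhadh, and Fabp1 (10.8%, compared with 14% of all genes). Kappa B-like letters, GGG and CC around any 5 bases, occurred in 28 of 37 (75.7%, compared with 53.5% of all genes), and they match many GC-rich stretches. The 3 windows below hold the only PPAR response element found and, in Fabp1, Ehhadh, and Acox2, an antioxidant element of a gene that fell in a knockout. Only Ehhadh fell in Nrf2 KO, where Fabp1 had a log2 fold change of -0.17 and Acox2 of -0.36. These 2 fell in p65 KO and DKO. Acot3, which fell in none, is not shown. Each window shows the 250 bases before the start, 5′ to 3′ on the strand of the gene, with PPAR response and antioxidant elements in capitals. Kappa B-like letters are not marked, although they also occur within the stretches shown for Ehhadh and Acox2.
Fabp1 (chr6:71199629-71199878, + strand): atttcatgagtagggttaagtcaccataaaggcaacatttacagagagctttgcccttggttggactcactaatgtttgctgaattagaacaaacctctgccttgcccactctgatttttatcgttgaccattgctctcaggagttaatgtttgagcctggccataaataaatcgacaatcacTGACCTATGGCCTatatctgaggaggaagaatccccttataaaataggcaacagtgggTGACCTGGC
Ehhadh (chr16:21787835-21788084, - strand): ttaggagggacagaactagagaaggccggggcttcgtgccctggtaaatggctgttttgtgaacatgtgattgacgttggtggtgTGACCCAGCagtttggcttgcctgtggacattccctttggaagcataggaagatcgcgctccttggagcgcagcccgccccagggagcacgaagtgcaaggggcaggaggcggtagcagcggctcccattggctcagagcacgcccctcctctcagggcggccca
Acox2 (chr14:8258840-8259089, - strand): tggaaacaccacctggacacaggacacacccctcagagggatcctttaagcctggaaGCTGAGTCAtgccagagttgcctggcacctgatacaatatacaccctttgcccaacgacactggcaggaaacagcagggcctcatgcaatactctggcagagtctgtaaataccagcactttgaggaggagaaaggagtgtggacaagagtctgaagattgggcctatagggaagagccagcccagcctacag
In Fabp1 the PPAR response element begins 67 bases before the start on the opposite strand, and the antioxidant element, TGACCTGGC, 9 bases before it. The antioxidant element begins 165 bases before the start in Ehhadh and 193 in Acox2, there on the opposite strand. Acox2 has a second annotated start, from which the same element lies at -13 bases. These matches describe letters, and binding was not measured in these data.

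In control hepatocytes, the levels of the 43 genes spanned a wide range. Per kilobase of the canonical transcript, Fabp1, the liver fatty acid binding protein, was highest with 313099 ± 33821 normalized counts per kb (SD, n = 3), followed by the peroxisomal thiolase Acaa1b (30120.0 ± 1354) and the mitochondrial thiolase Acaa2 (18584 ± 1672). The ranges of these 3 genes over the control libraries did not overlap. Ehhadh, the peroxisomal bifunctional enzyme, was 5th with 10355 ± 626 per kb, and its range overlapped with that of Etfb, an electron transfer flavoprotein subunit (10171 ± 927). Cpt1a, the rate-limiting enzyme of mitochondrial fatty acid entry, had 1686 ± 420 per kb, whereas Pdk4, a kinase that inhibits pyruvate dehydrogenase, had 137 ± 37.8 and Eci3 only 3.01 ± 1.15 per kb.

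Together the 43 genes held 1.64% to 1.70% of all counts in the control libraries. This share was 1.27% and 1.32% in Nrf2 KO, 1.12% and 1.28% in p65 KO, and 0.941% to 1.06% in DKO libraries. The lowest control library thus lay above every knockout library. These are shares of unscaled totals. After TMM scaling, the 43 genes summed to 602020 to 677450 normalized counts in control and 488600 and 513210 in Nrf2 KO libraries. The sums were 383210 and 438450 in p65 KO and 397100 to 447190 in DKO libraries, so that p65 KO and DKO overlapped on that scale. These bulk data cannot tell fewer cells of a type from less RNA per cell. Single mice showed the same shift, with 36 and 31 of the 43 genes below all control libraries in the Nrf2 KO mice, 35 in each p65 KO mouse, and 34 to 42 in the DKO mice. Of all genes tested, 23.5% and 24.7%, 32.1% and 34.4%, and 29.9% to 31.4% lay below all control libraries in the same mice. The median over the genes of the log2 ratio to the control mean was -0.78 in DKO replicate 1, -0.61 in replicate 2, and -0.50 in replicate 3. The heat map of all genes and libraries shows this shift toward lower values in all 3 knockout genotypes.

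**Figure D1:**
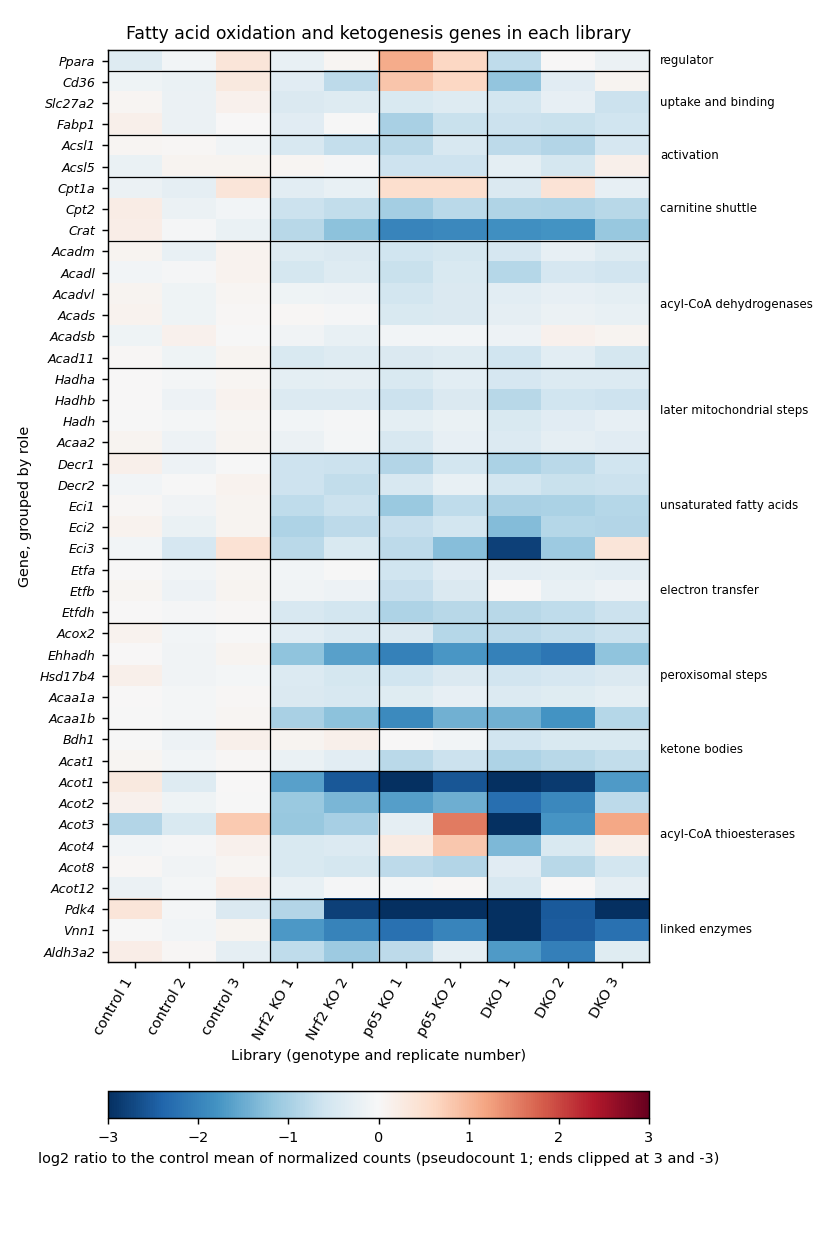
Log2 ratio of the normalized count in each library to the control mean, with 1 row per gene grouped by role and 1 column per library. Blue is lower and red higher than control, and the share of blue rows rises from control to the knockouts, with Ppara, Cd36, Cpt1a, and Acot4 red in both p65 KO libraries.

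Each knockout was compared with control to determine which genes of the pathway respond to the loss of Nrf2, p65, or both. All adjusted p-values are from edgeR's quasi-likelihood test with Benjamini-Hochberg adjustment over all genes tested, and a gene rose or fell if its adjusted p was at most 0.05. The 3 comparisons share the same control libraries. Of the 43 genes, 6 fell and 0 rose in Nrf2 KO (0.594% of all genes tested fell, and 0.132% rose). In p65 KO, 28 fell and 1 rose (6.77% and 8.13% of all genes), and in DKO 25 fell and 0 rose (2.84% and 2.61%). The median log2 fold change over the 43 genes was -0.45, -0.55, and -0.56, and that over all genes tested was 0.00, 0.00, and 0.02. Since abundant genes are more often called, the 35 members whose mean reached 1000 normalized counts were also set beside the 3768 such genes. There, 5, 23, and 20 members fell, and 1.43%, 13.2%, and 5.97% of these genes fell. With a log2 fold change of at least 1 as well, 2, 7, and 8 of the 43 genes fell, with 0.44%, 1.54%, and 1.02% of all genes. All libraries of the knockout lay below all control libraries for 29, 35, and 33 members in the 3 comparisons, compared with 13.6%, 23.8%, and 13.2% of all genes tested.

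The counts depended on single libraries. In Nrf2 KO, 1 gene was left without any of the control replicates 1, 2, or 3 or without Nrf2 KO replicate 1, 0 were left without Nrf2 KO replicate 2, and 3 without either p65 KO replicate, so that the call of single genes in this genotype is not firm. In p65 KO, 10 were left without p65 KO replicate 1, 14 without control replicate 1, and 18 without control replicate 3, and scaling to equal totals left 16. In DKO, 15 were left without control replicate 1. The direction of every gene that rose or fell was the same under all of these alternatives.

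**Figure D2:**
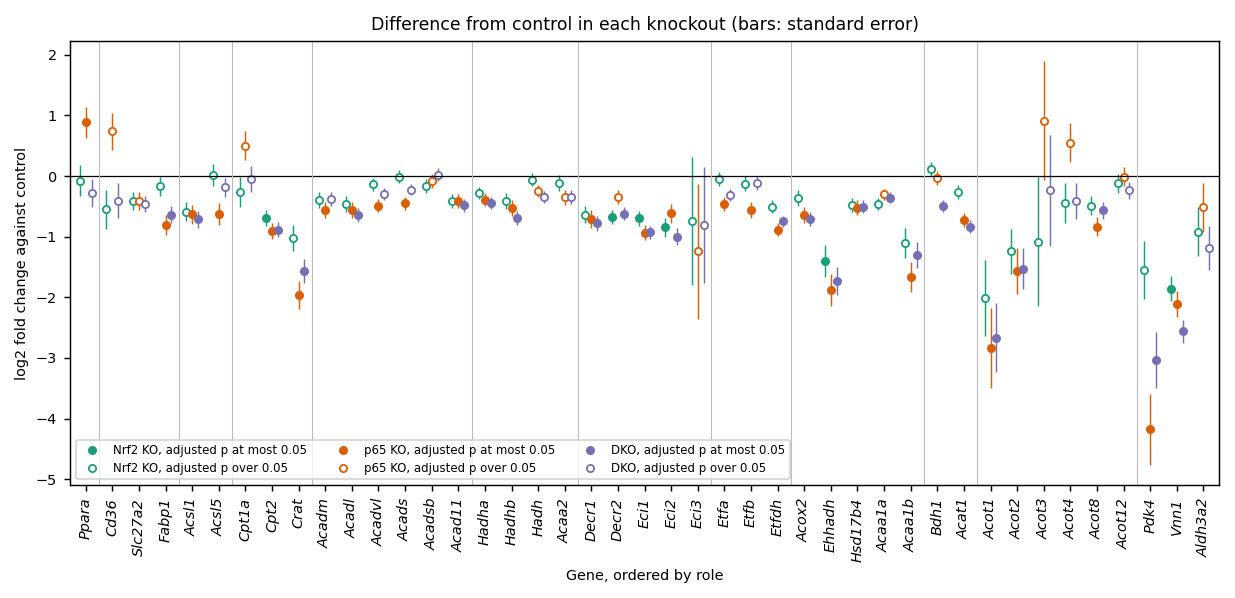
Log2 fold change against control with its standard error for each gene, ordered by role, in Nrf2 KO, p65 KO, and DKO. Filled points passed an adjusted p of 0.05. Most points lie below 0 in all 3 genotypes, with 6, 29, and 25 filled points.

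Across the 3 comparisons, 5 genes fell in all 3, and these were Cpt2, Eci1, Eci2, Ehhadh, and Vnn1. Another 17 fell in p65 KO and DKO, 6 in p65 KO alone, 2 in DKO alone (Acaa1a and Bdh1), and 1 (Decr2) in both Nrf2 KO and DKO, whereas 12 fell in none. A gene that passed in 1 comparison and missed in another is not thereby shown to differ between them, and the direct comparisons of the genotypes are given below.

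Other measurements moved with the genotypes. In p65 KO, 12 of 12 Kupffer cell markers and 6 of 6 sinusoidal endothelial markers rose, as did 4 of 6 stellate cell markers (8.13% of all genes tested rose). In DKO, 6 of 12, 1 of 6, and 1 of 6 of these markers rose (2.61% of all genes). Of the 10 hepatocyte markers, 1 rose in p65 KO and 3 rose in DKO, and 0 fell in either. The Kupffer markers summed to 1833 to 3195 in DKO and to 308 and 916.5 in Nrf2 KO libraries, where 0 of 12 rose, and to at most 1068 in control. The stellate markers summed to 111.5 to 195.2 in control, 1361 and 1427 in p65 KO, and 275.6 to 677.7 in DKO, and the endothelial ones to 524.5 to 1081, 2523 and 3509, and 1310 to 1847. Of the 6 T and NK cell markers, 5 were at 0 in every control library, and the list summed to at most 17.3 in any library. Clock genes moved as well. Arntl, a core clock activator, had 498 to 1130 normalized counts in control (mean 795), 30.5 and 21.7 in p65 KO, and 130 to 270.3 in DKO libraries, and Per2, a clock repressor, was 154 in control, 1217 in p65 KO, and 698 in DKO on average. Of 11 clock genes, 7 rose and 3 fell in p65 KO (8.13% and 6.77% of all genes tested). In DKO, 5 rose and 3 fell (2.61% and 2.84%). In Nrf2 KO 0 passed, whereas 3 had an unadjusted edgeR p under 0.05, and log2 fold changes ranged from -0.64 to 2.36. The Nrf2 KO libraries differed from each other, with Dbp at 87.0 and 1719 normalized counts, compared with 45.3, 54.1, and 426 in control. The part of these cells and of the clock in the results below was not tested. The study states that injections and sacrifices took place in the morning.

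Ppara itself did not move with most of the genes. Its normalized counts were 1822, 2271, and 3110 in the control libraries, 2071 and 2493 in Nrf2 KO, 5161 and 3709 in p65 KO, and 1423, 2409, and 2109 in DKO. Both p65 KO libraries lay above all others, whereas the other 3 genotypes overlapped. Ppara rose in p65 KO (log2 fold change 0.88, standard error 0.252, adjusted p = 0.0393) and did not pass in Nrf2 KO (-0.07) or DKO (-0.28). With edgeR and TMM it was the 1 member that passed between DKO and p65 KO, where it was lower in DKO (-1.16, standard error 0.252, adjusted p = 0.0339). The rise in p65 KO did not pass without control replicate 1 or 2, either Nrf2 KO replicate, or p65 KO replicate 1, and the difference between DKO and p65 KO not with only these 2 genotypes or without either p65 KO replicate, DKO replicate 1, or DKO replicate 3, with adjusted p values up to 0.283 and 0.202.

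Among genes of uptake and activation, Fabp1 fell in p65 KO and DKO. It had 176588 ± 19075 normalized counts in control (SD, n = 3), 100666 ± 15582 (n = 2) in p65 KO, and 113345 ± 2517 (n = 3) in DKO, with log2 fold changes of -0.81 (adjusted p = 0.0104) and -0.64 (adjusted p = 0.0277). The call in p65 KO was lost without p65 KO replicate 1 (adjusted p = 0.106), and that in DKO without control replicates 1 or 3 or any 1 DKO replicate (adjusted p up to 0.103). Acsl1, the main hepatic long-chain acyl-CoA synthetase, fell in the same genotypes (-0.63 and -0.71), and Acsl5, a related synthetase, fell in p65 KO (-0.62, adjusted p = 0.0443). The Acsl1 calls were lost without control replicates 1 or 2, that in p65 KO also without p65 KO replicate 1 and that in DKO without DKO replicates 1 or 2. The Acsl5 call was lost under 11 of 19 alternatives, which included leaving out DKO replicate 1 or any 1 control, Nrf2 KO, or p65 KO replicate (adjusted p up to 0.198). Cd36, a fatty acid translocase, was at 202 ± 39.7 normalized counts in control and 337 ± 35.9 in p65 KO, which did not pass (0.74, adjusted p = 0.125). Slc27a2, a fatty acid transporter and very-long-chain acyl-CoA synthetase, passed in no comparison with control, with log2 fold changes of -0.41, -0.42, and -0.46.

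The 3 genes of the carnitine shuttle differed among themselves. Cpt1a had 9772, 9279, and 14303 normalized counts in control, 8963 and 9579 in Nrf2 KO, 15654 and 15745 in p65 KO, and 8241, 14708, and 9420 in DKO libraries. Both p65 KO libraries lay above the control libraries, but the difference did not pass (0.50, standard error 0.24, adjusted p = 0.182), and the other genotypes overlapped with control. By contrast, Cpt2, which releases acyl-CoA inside mitochondria, fell in all 3 genotypes, from 6013 ± 917 in control to 3717 ± 139 (Nrf2 KO), 3207 ± 328 (p65 KO), and 3260 ± 116 (DKO) (log2 fold changes -0.69, -0.91, and -0.88; adjusted p = 0.0478, 0.00313, and 0.00304). The call in Nrf2 KO was lost under 13 of 19 alternatives, among them the removal of any 1 of the 10 libraries. Crat, the carnitine acetyltransferase that exports acetyl groups, had 2565, 2164, and 1945 in control, 1249 and 949.8 in Nrf2 KO, 560 and 582 in p65 KO, and 616, 639.6, and 1004 in DKO libraries. All 7 knockout libraries lay below the control libraries. Crat fell in p65 KO (-1.96, standard error 0.228, adjusted p = 0.00102) and DKO (-1.56, standard error 0.194, adjusted p = 0.00188), and missed the threshold in Nrf2 KO (-1.02, adjusted p = 0.0748).

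The acyl-CoA dehydrogenases, which start each cycle for chains of different length, fell moderately. In p65 KO, 5 of the 6 fell, with log2 fold changes from -0.56 to -0.41, in DKO 2 fell, and in Nrf2 KO 0 did. Acadl, for long chains, fell in p65 KO (-0.56, adjusted p = 0.0205) and DKO (-0.64, adjusted p = 0.0138), as did Acad11 (-0.41 and -0.48). Acadm, for medium chains, and Acadvl, for very long chains, fell in p65 KO (-0.55 and -0.49) and had -0.38 and -0.29 in DKO, which did not pass. In p65 KO the calls of Acadl, Acadm, and Acadvl were lost without control replicate 3 or p65 KO replicate 1, those of Acadm and Acadvl also without control replicate 1, and that of Acadm without p65 KO replicate 2 (adjusted p up to 0.166). The call of Acad11 was lost under 12 of 19 alternatives in p65 KO, among them leaving out any 1 control, Nrf2 KO, or p65 KO replicate (adjusted p up to 0.213), and in DKO without control replicates 1 or 3 or DKO replicates 1 or 3 (adjusted p up to 0.0967).

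Of the later mitochondrial steps, both subunits of the trifunctional protein fell in p65 KO and DKO. Hadhb went from 9223 ± 842 in control to 6395 ± 673 and 5724 ± 506, with log2 fold changes of -0.53 and -0.69 (adjusted p = 0.0210 and 0.00787), and Hadha had -0.39 and -0.45. Both calls in p65 KO were lost without control replicates 1 or 3 or p65 KO replicate 1, that of Hadha also without either Nrf2 KO replicate or p65 KO replicate 2 (adjusted p up to 0.204), and in DKO that of Hadha without control replicates 1 or 3 or DKO replicate 1 (adjusted p up to 0.0755). Hadh, the short-chain hydroxyacyl-CoA dehydrogenase, and Acaa2 did not pass, with -0.35 and -0.34 in DKO.

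Genes for unsaturated fatty acids made up 3 of the 6 calls in Nrf2 KO. Eci2, an enoyl-CoA isomerase, had 7964, 6497, and 7902 normalized counts in control, 3946 and 4358 in Nrf2 KO, 4632 and 5126 in p65 KO, and 3017, 4087, and 4076 in DKO libraries. All knockout libraries lay below those of control. It fell by 0.84, 0.61, and 1.00 on the log2 scale (standard errors 0.156, 0.155, and 0.138; adjusted p = 0.0411, 0.0262, and 0.00326). The call in Nrf2 KO was lost without any 1 of the control, Nrf2 KO, or p65 KO replicates (adjusted p up to 0.313), and that in p65 KO without control replicates 1 or 3 or either p65 KO replicate (adjusted p up to 0.177). Eci1, the mitochondrial isomerase, fell by 0.70, 0.93, and 0.93. Decr2, the peroxisomal dienoyl-CoA reductase, fell in Nrf2 KO (-0.68, adjusted p = 0.0253) and DKO (-0.62, adjusted p = 0.00821), and its mitochondrial counterpart Decr1 fell in p65 KO (-0.71) and DKO (-0.78). In Nrf2 KO the calls of Eci1 and Decr2 were lost without any 1 control or Nrf2 KO replicate (adjusted p up to 0.395), and that of Decr1 in p65 KO without p65 KO replicate 1 (adjusted p = 0.115). Eci3 was at 0 to 8.41 normalized counts in every library and cannot be judged at this depth.

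The electron transfer genes pass electrons from the dehydrogenases to the respiratory chain, and all 3 fell in p65 KO. Etfdh, the membrane-bound oxidoreductase, fell from 12177 ± 277 to 6603 ± 309 in p65 KO and 7258 ± 506 in DKO (-0.88 and -0.75; adjusted p = 0.00142 and 0.00202). Etfa (-0.46) and Etfb (-0.55), the flavoprotein subunits, fell in p65 KO only among the comparisons with control, and had -0.30 and -0.11 in DKO. Both calls were lost without control replicates 1 or 3 or p65 KO replicate 1 (adjusted p up to 0.181). The canonical transcript of Etfb shared 68% of its stretches of 31 bases with Etfbl, so its counts are less certain.

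Peroxisomal genes included 2 abundant transcripts with large falls. Ehhadh had 31245, 28939, and 32643 normalized counts in control, 13356 and 10055 in Nrf2 KO, 7621 and 9203 in p65 KO, and 7641, 6877, and 13480.5 in DKO libraries. The highest knockout library was thus far below the lowest control library. Ehhadh fell in all 3 genotypes (-1.40, -1.88, and -1.73; standard errors 0.265, 0.271, and 0.233; adjusted p = 0.0427, 0.00268, and 0.00304). The call in Nrf2 KO was lost without any 1 of the control, Nrf2 KO, or p65 KO replicates (adjusted p up to 0.498), and the others were kept under all alternatives. Acaa1b had 50822, 48611, and 53184 in control, 25765 and 21661 in Nrf2 KO, 13446 and 18618 in p65 KO, and 18645, 14796, and 28313 in DKO libraries. Every knockout library was below control, and DKO replicate 3 was the highest of its genotype for both genes. It fell in p65 KO (-1.67, standard error 0.254, adjusted p = 0.00333) and DKO (-1.31, standard error 0.217, adjusted p = 0.00842), and had -1.10 in Nrf2 KO (adjusted p = 0.0944). Acaa1b and its neighbour Acaa1a on chromosome 9 share 45.7% and 42.7% of their 31-base stretches, so reads could be split between them. Their sum went from 55529 ± 2430 to 19805 ± 3915 in p65 KO and 24222 ± 7064 in DKO (-1.49 and -1.20; adjusted p = 0.00324 and 0.00742). Hsd17b4, the other bifunctional enzyme, fell less (-0.52 in p65 KO and -0.51 in DKO), and Acox2, an oxidase of branched chains and bile acid intermediates, fell by 0.64 and 0.71. In p65 KO the call of Hsd17b4 was lost without control replicate 1 or p65 KO replicate 1 and that of Acox2 without p65 KO replicate 2, and in DKO that of Hsd17b4 was lost without control replicate 1 or DKO replicates 1 or 2 (adjusted p up to 0.151). Acaa1a alone fell in DKO (-0.36, adjusted p = 0.0402), a call lost under 12 of 19 alternatives, among them leaving out any 1 control, Nrf2 KO, or DKO replicate (adjusted p up to 0.126).

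The 2 ketone body genes fell in DKO. Acat1, which forms acetoacetyl-CoA, fell from 16852 ± 827 in control to 10154 ± 817 in p65 KO and 9454 ± 620 in DKO (-0.73 and -0.83; adjusted p = 0.00391 and 0.00179). Bdh1, which interconverts the ketone bodies acetoacetate and beta-hydroxybutyrate, was 7859 ± 866 in control, 8540 ± 336 in Nrf2 KO and 7713 ± 384 in p65 KO, whereas it was 5592 ± 250 in DKO. All 3 DKO libraries lay below every other library, and Bdh1 fell in DKO (-0.49, adjusted p = 0.0248), a call lost without control replicates 1 or 3 or DKO replicates 1 or 2 (adjusted p up to 0.0818). Against the single knockouts its values of -0.61 (adjusted p = 0.0508) and -0.46 (adjusted p = 0.0507) were just short of the threshold. They passed against both with DESeq2 and with scaling to equal totals, against Nrf2 KO also without the filter or without control replicate 2, and against p65 KO with the stricter filter.

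The thioesterases, which release free fatty acids from coenzyme A, were split. Acot1, the cytosolic enzyme, had 1941, 1215, and 1604 normalized counts in control, 514 and 273 in Nrf2 KO, 177 and 267 in p65 KO, and 53.6, 217, and 484 in DKO libraries. It fell in p65 KO (-2.84, standard error 0.665, adjusted p = 0.0195) and DKO (-2.66, standard error 0.563, adjusted p = 0.0241), and the 3 DKO libraries differed widely. Acot2, the mitochondrial enzyme, had 219, 182, and 198 in control, 91.9 and 76.8 in Nrf2 KO, 63.0 and 71.8 in p65 KO, and 41.0, 51.6, and 116 in DKO libraries, with -1.56 and -1.53 in p65 KO and DKO (adjusted p = 0.0229 and 0.0268). Acot3 and Acot4, encoded next to them on chromosome 12, did not pass, and Acot4 was at 1284 ± 98.5 in control and 1882 ± 504 in p65 KO. Acot1 shared 39% and Acot3 40.2% of their 31-base stretches with other genes. When the 4 genes were summed, the total had -0.41 in p65 KO (adjusted p = 0.533) and -1.20 in DKO (adjusted p = 0.0888). Neither passed. In p65 KO, Acot4 averaged 1882 of a total of 2408, although it shared only 10.2% of its 31-base stretches with other genes. The total therefore cannot decide whether the calls of Acot1 and Acot2 rest on shared reads. Both genes lost the call in p65 KO without control replicate 1 or either p65 KO replicate. In DKO the call of Acot1 was lost without control replicate 1 or DKO replicate 2, and that of Acot2 without any 1 control replicate or DKO replicates 1 or 2 (adjusted p up to 0.0956). Acot8, a peroxisomal enzyme, fell in p65 KO (-0.84) and DKO (-0.56). The first call was lost without p65 KO replicate 1 (adjusted p = 0.0519), and the second under 12 of 19 alternatives, among them leaving out DKO replicates 2 or 3 or any 1 control, Nrf2 KO, or p65 KO replicate (adjusted p up to 0.125). Acot12, which acts on acetyl-CoA, did not pass, with values between -0.24 and -0.01.

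Among the linked enzymes, Vnn1 had the lowest adjusted p of the 43 genes in each comparison with control. This pantetheinase, known as a PPARα target, had 1547, 1466, and 1650.3 normalized counts in control, 473 and 386 in Nrf2 KO, 327 and 395 in p65 KO, and 188, 276, and 327 in DKO libraries. All knockout libraries lay far below the lowest control library. Vnn1 fell in all 3 genotypes (log2 fold changes -1.86, -2.11, and -2.56; standard errors 0.209, 0.212, and 0.187; adjusted p = 0.00201, 0.000636, and 9.04e-05), and without Nrf2 KO replicate 2 its adjusted p in Nrf2 KO was 0.0655. Pdk4 had 665, 494, and 383 in control, 281 and 72.7 in Nrf2 KO, 21.3 and 35.0 in p65 KO, and 47.3, 88.6, and 51.5 in DKO libraries. All knockout libraries lay below control, and those of Nrf2 KO were far apart. Pdk4 fell in p65 KO (-4.18, standard error 0.588, adjusted p = 0.00232) and DKO (-3.04, standard error 0.459, adjusted p = 0.00523), the largest log2 fold changes among the 43 genes. Aldh3a2, a fatty aldehyde dehydrogenase, passed in no comparison with all libraries in edgeR and differed between DKO and p65 KO without DKO replicate 3, and its DKO libraries ranged from 2028 to 6498.

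**Figure D3:**
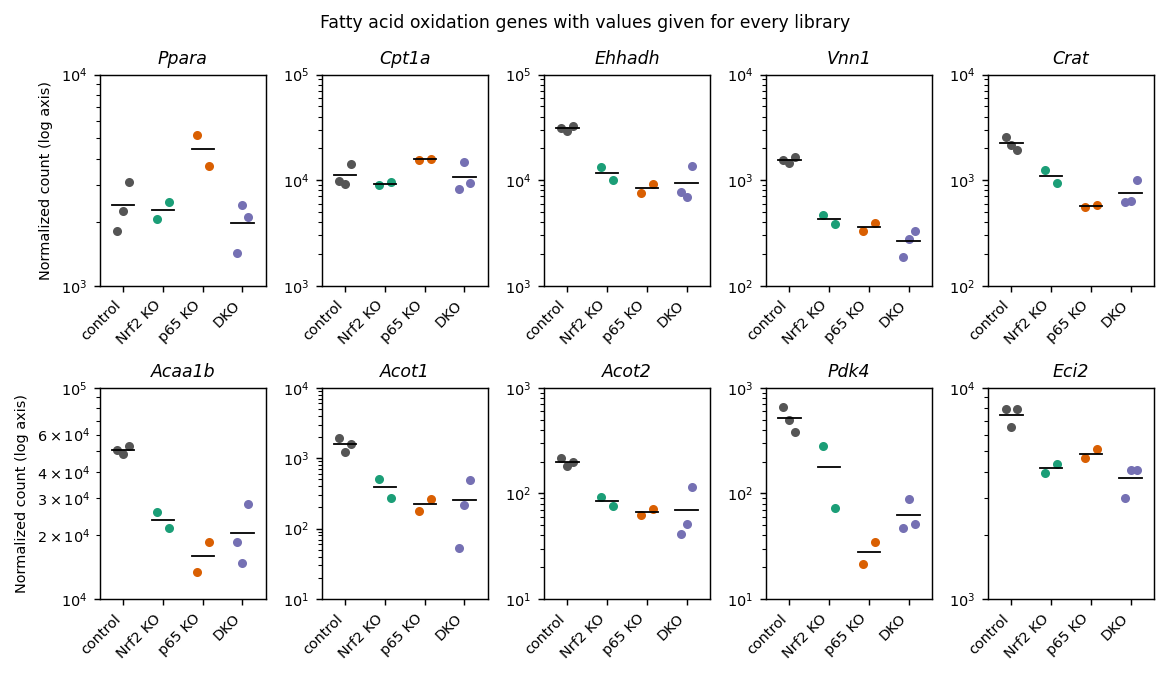
Normalized counts (log axis) of 10 genes in each library, with points for mice and a line at the mean of each genotype. For Ehhadh, Vnn1, Crat, Acaa1b, Acot1, Acot2, Pdk4, and Eci2 all knockout libraries lie below control, whereas Ppara and Cpt1a are highest in p65 KO.

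DKO libraries were compared with those of each single knockout to examine what the loss of the second gene added. Against Nrf2 KO, 0 of the 43 genes passed with edgeR (0.513% of all genes did), 11 had an unadjusted p under 0.05 (14.4% of all genes), and DESeq2 called 2, Bdh1 and Acat1. The median log2 difference was -0.19, compared with 0.01 over all genes. Against p65 KO, 1 passed, Ppara (4.11% of all genes did), 10 had an unadjusted p under 0.05 (22.5% of all genes), and the median difference was -0.05. Here DESeq2 called 5, which were Ppara, Cd36, Etfb, Bdh1, and Acot4, and the replicate block called Ppara, Cd36, and Acot4. Without DKO replicate 3, Cd36, Acot4, and Aldh3a2 passed and Ppara did not, and without DKO replicate 2 both Ppara and Cpt1a passed. For Ehhadh the difference between DKO and p65 KO was 0.15 (standard error 0.254) and for Vnn1 it was -0.45 (standard error 0.202, adjusted p = 0.215).

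If the effects of Nrf2 and p65 loss added on the log2 scale, the difference between DKO and p65 KO would equal that between Nrf2 KO and control, and the interaction, the first minus the second, would be 0. The interaction was above 0 for 35 and below 0 for 8 of the 43 genes (51% and 49% of all genes), with a median of 0.38, compared with 0.01 over all genes tested. With edgeR, 0 of the 43 passed (0.469% of all genes did), 20 had an unadjusted p under 0.05 (13.8% of all genes), and DESeq2 called 9, which were Cpt2, Crat, Eci1, Etfdh, Ehhadh, Acaa1b, Pdk4, and Vnn1, above 0, and Bdh1, below 0. The highest values were those of Pdk4 (2.69, standard error 0.752, adjusted p = 0.165), Acot1 (2.19, standard error 0.881, adjusted p = 0.316), Ehhadh (1.55, standard error 0.366, adjusted p = 0.104), and Acaa1b (1.46, standard error 0.345, adjusted p = 0.105). For these genes the estimated fall in DKO was not larger than that in p65 KO. The total of the 4 neighbouring thioesterase genes, which includes Acot4, had an interaction of 0.32 (adjusted p = 0.853) and is not a measure of Acot1 alone. Without Nrf2 KO replicate 1 the interaction of Pdk4 passed, and that of Ehhadh passed without DKO replicate 2 or 3. Vnn1 had an interaction of 1.40 (standard error 0.288, adjusted p = 0.0698) and Crat of 1.42 (standard error 0.307, adjusted p = 0.0851), and Ppara had -1.09 (standard error 0.358, adjusted p = 0.235).

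**Figure D4:**
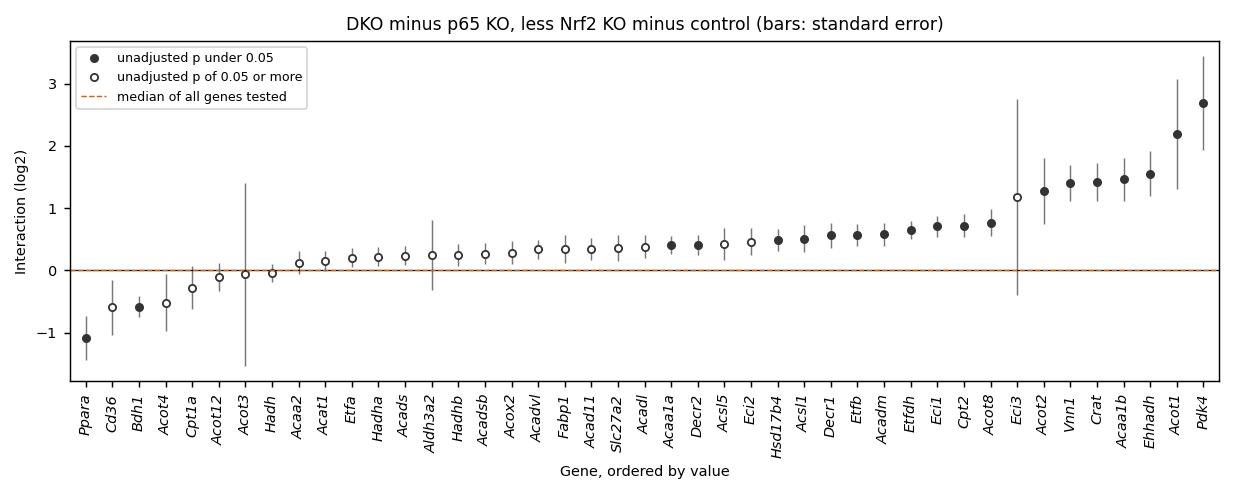
Interaction on the log2 scale with its standard error for each gene, ordered by value. Filled points had an unadjusted p under 0.05. None passed after adjustment with edgeR, 35 of 43 values lie above 0, and the dashed line at the median of all genes tested is near 0.

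A list of 65 other genes of the pathway and its regulation, which did not contain the members, was examined in the same tests. Of these, 3 fell and 0 rose in Nrf2 KO, 14 fell and 6 rose in p65 KO, and 13 fell and 4 rose in DKO, with medians of -0.09, -0.06, and -0.18. Of all genes tested, 0.594% fell and 0.132% rose in Nrf2 KO, 6.77% and 8.13% in p65 KO, and 2.84% and 2.61% in DKO, so that the share of the list that rose in p65 KO was near that of all genes. The 10 with the largest changes against control included the fatty acid omega-hydroxylases Cyp4a14 and Cyp4a10. Cyp4a14 had 11401 to 29874 normalized counts in control, 2992 and 1094 in Nrf2 KO, 729 in both p65 KO libraries, and 108 to 2189 in DKO, and it fell in p65 KO (-4.66, adjusted p = 0.0166) and DKO (-4.22, adjusted p = 0.0208). Cyp4a10 had 23698 to 41453 in control and 1852 and 1967 in p65 KO libraries and fell in p65 KO (adjusted p = 0.0155) and DKO (-2.82, adjusted p = 0.0424), and DKO replicate 3 was the highest of its genotype for both. Both calls in p65 KO were lost without either p65 KO replicate (adjusted p up to 0.129), those in DKO without DKO replicate 2, and that of Cyp4a10 in DKO also without any 1 control, Nrf2 KO, or p65 KO replicate (adjusted p up to 0.108). Crot, the peroxisomal carnitine octanoyltransferase, fell in p65 KO (-1.41, adjusted p = 0.00209) and DKO (-1.33, adjusted p = 0.00189), and Plin2, a coat protein of lipid droplets, fell in Nrf2 KO (-0.77), p65 KO (-1.41), and DKO (-1.42), of which that in Nrf2 KO was lost without control replicates 1 or 2, DKO replicate 1, or any 1 Nrf2 KO or p65 KO replicate (adjusted p up to 0.449). Abcd2, a peroxisomal transporter, fell in DKO (-1.91, adjusted p = 0.0301) and had 0.56 and 0.12 in the single knockouts, and this call was lost without control replicates 2 or 3 or DKO replicates 2 or 3 (adjusted p up to 0.0848).

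Hacl1, the lyase of peroxisomal alpha-oxidation, was the only gene of the 65 whose interaction passed. It had 19246, 18396, and 18651 normalized counts in control, 12922 and 10882 in Nrf2 KO, 5885 and 6298 in p65 KO, and 10075, 8763, and 14444 in DKO libraries. All DKO libraries lay above both p65 KO libraries and below control. The interaction was 1.52 (standard error 0.266, adjusted p = 0.0375), and Hacl1 was higher in DKO than in p65 KO (0.86, adjusted p = 0.0341). The interaction ranged from 1.24 to 1.67 over the alternatives and lost its call in 10 of them, which included leaving out DKO replicate 1 or any 1 control, Nrf2 KO, or p65 KO replicate (adjusted p up to 0.212). The difference from p65 KO was lost without control replicate 2, DKO replicate 1, or either p65 KO replicate (adjusted p up to 0.174). Other genes rose. Lpin1, which encodes a phosphatidate phosphatase that also acts as a coactivator of PPARα, had 1982 to 5009.6 in control, 14503 and 17625 in p65 KO, and 8194 to 19725 in DKO, with log2 fold changes of 2.29 (adjusted p = 0.00558) and 2.26 (adjusted p = 0.00791). Ppargc1b, another coactivator, rose in p65 KO (1.11, adjusted p = 0.0482) and DKO (1.21, adjusted p = 0.0462), and both calls were lost without any 1 control replicate or without DKO replicates 2 or 3, that in p65 KO also without p65 KO replicate 1, and that in DKO without DKO replicate 1. Acot11, a further thioesterase, rose in DKO (2.16, adjusted p = 0.00304), from 81.3 to 103 in control to 231 to 596, and Fgf21, a hormone that the liver secretes in fasting, fell in Nrf2 KO (-1.58) and DKO (-3.85) and had -0.04 in p65 KO. The fall of Fgf21 in Nrf2 KO was lost without any 1 control or Nrf2 KO replicate or DKO replicate 1 (adjusted p up to 0.497).

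**Figure D5:**
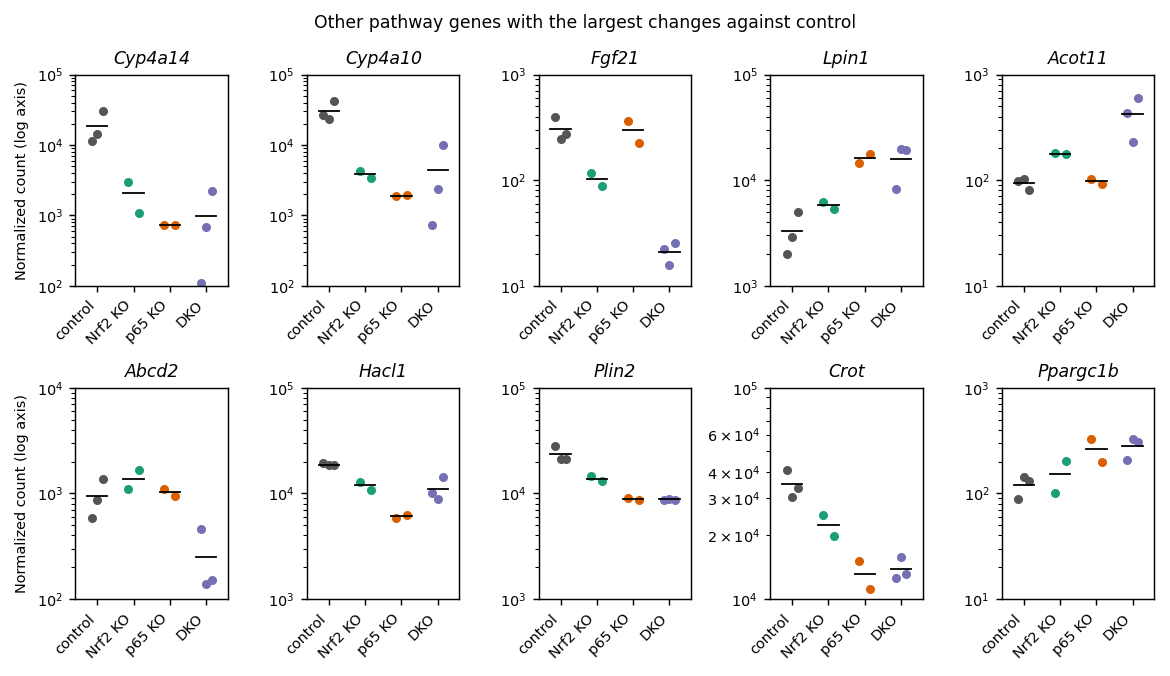
Normalized counts (log axis) of 10 other pathway genes in each library, with points for mice and a line at the mean of each genotype. Cyp4a14, Cyp4a10, Crot, and Plin2 are lower in every knockout library than in control, Lpin1 is highest in p65 KO and DKO, and Acot11 is highest in DKO.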

How the data were processed

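Hepatocyte RNA was sequenced from poly-A selected, stranded libraries. The authors quantified reads with Salmon 1.10.3 (GRCm39, GENCODE M33), and the deposited table, named as normalized, holds estimated counts as whole numbers with unequal totals and size factors (0.879 to 1.26). It was therefore treated as unscaled. Each count was divided by its TMM-scaled library size, set relative to the mean size, to give normalized counts. The test was edgeR 4.0.16 (R 4.3.3) with TMM, a summed count of 10 or more, and 1 model of all 4 genotypes. The standard error is the log2 fold change over the root of F. On simulated data, 83% (interaction) to 95.5% (DKO against control) of 200 changed genes were recovered. These percentages are for all 200 genes together and are not a recovery rate for the members. Recovery at the size of the member medians was not tested. Replicates differed by more than sampling noise. Each library is 1 mouse, and litters and days are not given in the sources used here.

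The members and lists were chosen with earlier results of these data known. Values in every library are given for Ppara, Cpt1a, and members that passed an adjusted p of 0.05 with a log2 change of 1 or more in any comparison. Of the others, up to 4 per role with the lowest p are described, and of the other pathway genes the 10 that passed with the largest changes. Alternatives were other scalings and filters, DESeq2 1.42.0, a block of replicate numbers, fits of only the genotypes compared, leaving out each library, and summed paralogs. Promoters are those of RefSeq on GRCm38.p6.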

Additional observations from a re-analysis of the deposited data

Results flagged for a closer look

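Hacl1 had an interaction of 1.52 that passed the test of the difference itself (adjusted p = 0.0375). Its difference between Nrf2 KO and control was -0.66 (adjusted p = 0.22) and that between DKO and p65 KO was 0.86 (adjusted p = 0.0341). The interaction call was lost under 10 alternatives, with adjusted p up to 0.212.

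For 3 of the 43 genes, the libraries moved without overlap in opposite directions, being lower in Nrf2 KO than in control and higher in DKO than in p65 KO. Of all genes tested, 1.69% had this pattern. The 3 members were Pdk4 (interaction 2.69, adjusted p = 0.165), Crat (1.42, adjusted p = 0.0851), and Acadm (0.58, adjusted p = 0.216). Acaa1a was lower in p65 KO than in control and higher in DKO than in Nrf2 KO in the same way (0.41, adjusted p = 0.247), a pattern found in 1.33% of all genes tested. The interaction test of these 4 genes did not pass with edgeR and TMM. DESeq2 called the interaction of Crat and Pdk4, edgeR without the filter that of Crat, and edgeR without Nrf2 KO replicate 1 that of Pdk4.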

How the results depend on the processing

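No called log2 fold change of a member changed its direction under any alternative, and 24 of the 61 called values kept their call under all of them. The numbers of members past an adjusted p of 0.05 were 6 (Nrf2 KO), 29 (p65 KO), 25 (DKO), 0 (DKO against Nrf2 KO), 1 (DKO against p65 KO), and 0 (interaction). They were 16, 33, 31, 2, 5, and 9 with DESeq2. Scaling to equal totals, which moved the median of all genes by 0.18 in p65 KO, -0.27 for DKO against p65 KO, and -0.27 in the interaction, gave 16 in p65 KO, 2 against Nrf2 KO, 8 against p65 KO, and 1 in the interaction. The member medians were then -0.37 in p65 KO, -0.31 for DKO against p65 KO, and 0.11 in the interaction, whereas relative to all genes they were -0.550, -0.0410, and 0.368, compared with -0.555, -0.0456, and 0.365 with TMM. Without the filter 2, 2, and 3 members passed in the last 3 comparisons, and with a mean of at least 10 counts per library 2 passed for DKO against p65 KO. With only the 2 genotypes compared, 16 passed in DKO and 0 for DKO against p65 KO.

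The groups share replicate numbers, but libraries with the same number did not deviate together (0 of 13 pairs had a correlation over 0.1, range -0.13 to 0.084), so the numbers were not taken as pairs. With the replicate block 1 member passed in Nrf2 KO, 17 in p65 KO, 19 in DKO, and 3 for DKO against p65 KO.

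Leaving out 1 library at a time gave 0 to 8 members in Nrf2 KO, 10 to 29 in p65 KO, 15 to 24 in DKO, 0 to 1 against Nrf2 KO, 0 to 3 against p65 KO, and 0 to 2 in the interaction, and member medians of -0.62 to -0.44 in p65 KO, -0.098 to 0.094 for DKO against p65 KO, and 0.33 to 0.51 in the interaction. Where a genotype was left with 1 library, its spread was assumed to equal that of the others. The causes were not tested. Groups of 2 and 3 mice limit the precision of every value.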
